A study of Mus musculus with 13 samples.

Results

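The 10 genes described here mark the endothelium of the islet capillaries: Kdr, Flt1, Tek, Pecam1, Cdh5, Esam, Cd34, Emcn, Plvap and Nkx2-3. They were chosen by symbol as known endothelial markers, with earlier results of these data known. All 10 were found among the 55421 genes of the count table. They were followed through 13 RNA-seq libraries of mouse islet cells. Knockout-labelled mice carried Txnrd1 fl/fl together with Ins1 Cre/+ and Rosa26 mTmG/mTmG, and control mice carried Txnrd1 +/+ with the same Cre and the same reporter. All were C57BL/6 mice 10 to 20 weeks old. The islets were cultured overnight at 5.5 mM glucose, dispersed with trypsin and sorted into Tomato-positive non-beta cells and GFP-positive beta cells, with dead cells gated out by DAPI. The groups were knockout-labelled non-beta cells (n = 3), control non-beta cells (n = 3), knockout-labelled beta cells (n = 3) and control beta cells (n = 4). The labels do not say whether the replicates came from separate mice, so a p-value covers only the spread between these libraries.

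Islets are threaded by dense capillaries whose endothelial cells are thin and fenestrated, which lets hormones pass into the blood. Beta cells and other endocrine cells make VEGF-A, which acts on the receptor kinases of the neighbouring endothelium and keeps these fenestrae in place, while angiopoietins act through the TEK receptor on vessel stability. Ins1-driven Cre is active in beta cells, where it switches the mTmG reporter from Tomato to GFP, so endothelial cells are not a target of the deletion and belong to the Tomato-positive fraction. In bulk RNA of a sorted fraction, fewer endothelial cells and less of a transcript per endothelial cell cannot be told apart, and this holds for every level below.

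The libraries held 28687466 to 36775079 counts, and replicates of a group were similar without being identical (Spearman correlation 0.973 to 0.994). Txnrd1, the targeted gene, had 239, 208 and 249.6 CPM in knockout-labelled non-beta libraries, against 259, 252 and 266 CPM in control non-beta libraries. It had 576, 585 and 553 CPM in knockout-labelled beta libraries, against 276, 276, 297 and 333 CPM in control beta libraries. CPM are library-size-scaled counts, with TMM factors over the 13 libraries. The count spans the whole gene and is not lower in the knockout-labelled beta libraries, so it does not check the label, and the groups are called by their labels throughout. Both replicate 3 libraries under the knockout label stood apart in hormone transcripts. Gcg, the glucagon gene of alpha cells, took 0.390% of counts in knockout-labelled beta replicate 3 and 0.0295% to 0.0682% in the other 6 beta libraries. Ins2, the main insulin gene, took 2.46% in knockout-labelled non-beta replicate 3 and 0.159% to 0.689% in the other 5 non-beta libraries.

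Promoter windows from the RefSeq table of mouse build GRCm38.p6, 250 bases before to 50 bases after the gene start, were matched by symbol for 6 of the 10 genes (Kdr, Flt1, Tek, Cd34, Emcn and Nkx2-3). The 4 printed here belong to the VEGF receptors Kdr and Flt1, which were placed differently between the labels, to Cd34, which had the largest difference between the labels, and to Emcn, whose window held the most matches. Each is given 5′ to 3′ on the strand of its gene. The capitals mark the core GGAA of ETS transcription factors, a family that is known to drive endothelial genes, or its complement TTCC.
Kdr, chr5:75978406-75978705, minus strand: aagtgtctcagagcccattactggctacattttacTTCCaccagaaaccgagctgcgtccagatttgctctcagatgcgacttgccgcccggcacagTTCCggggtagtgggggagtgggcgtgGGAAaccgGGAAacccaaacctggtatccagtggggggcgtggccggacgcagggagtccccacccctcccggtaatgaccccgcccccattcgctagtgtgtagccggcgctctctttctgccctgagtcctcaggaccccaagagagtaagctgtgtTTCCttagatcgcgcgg
Flt1, chr5:147725962-147726261, minus strand: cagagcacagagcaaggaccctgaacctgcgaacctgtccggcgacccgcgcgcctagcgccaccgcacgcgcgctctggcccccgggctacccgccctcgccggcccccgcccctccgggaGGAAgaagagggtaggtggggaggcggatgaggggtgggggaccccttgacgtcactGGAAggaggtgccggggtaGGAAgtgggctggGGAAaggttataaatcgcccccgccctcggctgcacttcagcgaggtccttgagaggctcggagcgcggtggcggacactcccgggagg
Cd34, chr1:194938571-194938870, plus strand: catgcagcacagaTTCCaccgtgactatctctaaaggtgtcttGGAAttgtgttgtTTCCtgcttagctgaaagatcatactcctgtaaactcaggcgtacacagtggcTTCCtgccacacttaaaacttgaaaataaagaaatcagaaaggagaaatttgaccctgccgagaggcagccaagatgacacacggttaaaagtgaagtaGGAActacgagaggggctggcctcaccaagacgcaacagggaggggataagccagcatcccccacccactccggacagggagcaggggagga
Emcn, chr3:137340828-137341127, plus strand: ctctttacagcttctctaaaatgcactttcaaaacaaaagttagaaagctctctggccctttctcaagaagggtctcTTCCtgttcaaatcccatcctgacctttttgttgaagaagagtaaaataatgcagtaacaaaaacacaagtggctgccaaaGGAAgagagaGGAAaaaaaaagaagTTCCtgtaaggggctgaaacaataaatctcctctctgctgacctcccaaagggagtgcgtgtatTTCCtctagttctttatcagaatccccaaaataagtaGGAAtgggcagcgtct
The core matched 5 times in the Kdr window, 4 times in that of Flt1, 5 times in that of Cd34 and 6 times in that of Emcn, both strands counted. It matched 2 times each in the windows of Tek and Nkx2-3. At least 1 match stood in 96.0% of the 32851 windows of the table, with a median of 3 matches a window, so a match alone sets no window apart. The longer AGGAAG, which contains the core, was in 3 of the 6 windows (Flt1, Cd34 and Emcn) and in 35.4% of all windows. The GATA motif GATAA was in 3 of 6 and in 25.4% of all, the SOX motif ACAAT in 3 of 6 and in 31.0%, and the KLF motif CACCC in 5 of 6 and in 57.5%. These are letter matches in a short window and describe no binding.

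In the non-beta fraction all 10 genes were read in every library, and their levels differed widely. Levels are compared between genes as CPM per kilobase of gene length. Plvap, which builds the diaphragms of fenestrae, was the highest in both groups, at 209.7 ± 6.96 CPM per kilobase in knockout-labelled non-beta cells and 304 ± 59.2 CPM per kilobase in control non-beta cells (SD, n = 3 each). Esam, an adhesion molecule of endothelial junctions, came next with 42.5 ± 4.26 CPM per kilobase in knockout-labelled and 52.0 ± 11.3 CPM per kilobase in control non-beta cells. In knockout-labelled non-beta cells Pecam1 (17.7), Emcn (16.9), Kdr (14.5) and Flt1 (11.3 CPM per kilobase) followed, and each overlapped its neighbour in this order across the libraries. Cdh5 (5.65) and Cd34 (5.57 CPM per kilobase) also overlapped, above Nkx2-3 (3.64) and Tek (2.84). In control non-beta cells Kdr (26.0), Pecam1 (24.9) and Emcn (24.2 CPM per kilobase) overlapped one another. Flt1 (11.6), Cd34 (10.2), Cdh5 (7.09) and Nkx2-3 (6.17 CPM per kilobase) then overlapped in sequence, with Tek (4.28) lowest.

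The first comparison asked whether the endothelial genes differ between the labels in the fraction that the Ins1-driven Cre leaves unrecombined. All 10 fitted log2 fold changes, knockout-labelled over control non-beta cells, were below 0, with a median of −0.51 and a range of −0.85 to −0.02. None of the 10 passed edgeR's quasi-likelihood test with adjusted p below 0.05, and none of the 18908 genes tested did, which is 0% of them. At an unadjusted p below 0.05 stood 7 of the 10 genes and 821 of all genes, and DESeq2 called 1 of the 10 (Cd34) among 29 genes in all. Every knockout-labelled library lay below every control library for 6 of the 10 genes, a pattern that 5.76% of all tested genes showed. The median log2 fold change of all tested genes was −0.003, with 50.4% below 0.

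Of the growth factor receptors, Kdr stood lower under the knockout label and Flt1 did not. Kdr, the main signalling receptor of VEGF-A, had 123, 124 and 146 CPM in knockout-labelled non-beta replicates 1, 2 and 3, against 307, 180.4 and 218 CPM in control non-beta replicates 2, 3 and 4. The 3 knockout-labelled libraries lay close together, and all were below the lowest control. The log2 fold change was −0.82 (SE, its standard error, 0.19, edgeR adjusted p = 0.999, unadjusted p = 0.00243). Flt1, a VEGF-A receptor with weak kinase activity that is known to act as a decoy, had 143, 107 and 209.6 CPM under the knockout label, against 186, 127 and 157 CPM in controls. The groups overlapped fully, with both the highest and the lowest library under the knockout label (log2 fold change −0.02, SE 0.24, edgeR adjusted p = 0.999). Tek, the receptor kinase of angiopoietins, had 15.1, 11.7 and 13.3 CPM under the knockout label, against 22.5, 18.2 and 19.8 CPM in controls. These groups did not overlap (log2 fold change −0.58, SE 0.16, edgeR adjusted p = 0.999, unadjusted p = 0.00561).

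The ratio of Kdr to Flt1 CPM was 0.860, 1.16 and 0.698 in the knockout-labelled non-beta libraries, against 1.65, 1.42 and 1.39 in the control non-beta libraries. The ratios of the groups did not overlap. This ratio was chosen after the values were seen, so it is a description with no test.

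Among the junction genes the groups overlapped for each member. Pecam1, the adhesion molecule CD31 that platelets and leukocytes also carry, had 123, 99.9 and 108 CPM under the knockout label, against 167, 111 and 188 CPM in controls. Control replicate 3 lay within the knockout-labelled range (log2 fold change −0.47, SE 0.20, edgeR adjusted p = 0.999, unadjusted p = 0.0405). Cdh5, the cadherin of endothelial adherens junctions, had 25.8, 29.2 and 16.2 CPM under the knockout label, against 27.5, 18.4 and 43.5 CPM in controls (log2 fold change −0.31, SE 0.33, edgeR adjusted p = 0.999). Its spread within each group was the widest relative to its level among the junction genes, and the log2 fold change was 0.07 without control replicate 4. Esam had 133, 109 and 123 CPM under the knockout label, against 160.3, 113 and 174 CPM in controls (log2 fold change −0.28, SE 0.17, edgeR adjusted p = 0.999).

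Among the surface sialomucins, the fenestral protein and the transcription factor the groups did not overlap, though those of Emcn nearly met, and none passed edgeR's test. Cd34, a sialomucin of capillary endothelium and of blood progenitors, had 43.8, 41.7 and 36.3 CPM under the knockout label, against 79.5, 67.3 and 75.4 CPM in controls. The knockout-labelled libraries were all far below the lowest control, and the means were 40.6 ± 3.86 CPM under the knockout label and 74.1 ± 6.21 CPM in controls (SD, n = 3 each). Its log2 fold change of −0.85 (SE 0.13) was the largest of the 10, with an unadjusted p of 0.000124 and an edgeR adjusted p = 0.507. DESeq2 gave −0.85 with adjusted p = 0.000234, and the authors' deposited table lists −0.84 with a false discovery rate of 0.0094, the only 1 of the 10 below 0.05 there. The annotated gene Gm16897 overlaps 2.03% of the exon bases of Cd34, and it is not stated whether the counting used strand.

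Emcn, endomucin, a sialomucin of capillaries and veins, had 79.5, 109.5 and 84.6 CPM under the knockout label, against 163, 111 and 120.0 CPM in controls. The groups nearly met, at knockout-labelled replicate 2 and control replicate 3 (log2 fold change −0.50, SE 0.18, edgeR adjusted p = 0.999). Plvap had 417, 403 and 430.1 CPM under the knockout label, against 739, 550.5 and 524 CPM in controls. The knockout-labelled libraries were nearly level, while the controls were spread, with replicate 2 far above the others (log2 fold change −0.52, SE 0.15, edgeR adjusted p = 0.999, unadjusted p = 0.00907). Nkx2-3, a homeobox transcription factor of endothelium in gut and spleen, had 7.08, 7.86 and 8.10 CPM under the knockout label, against 17.4, 10.3 and 11.5 CPM in controls. Again no library crossed over (log2 fold change −0.74, SE 0.22, edgeR adjusted p = 0.999, unadjusted p = 0.00867).

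**Figure D1:**
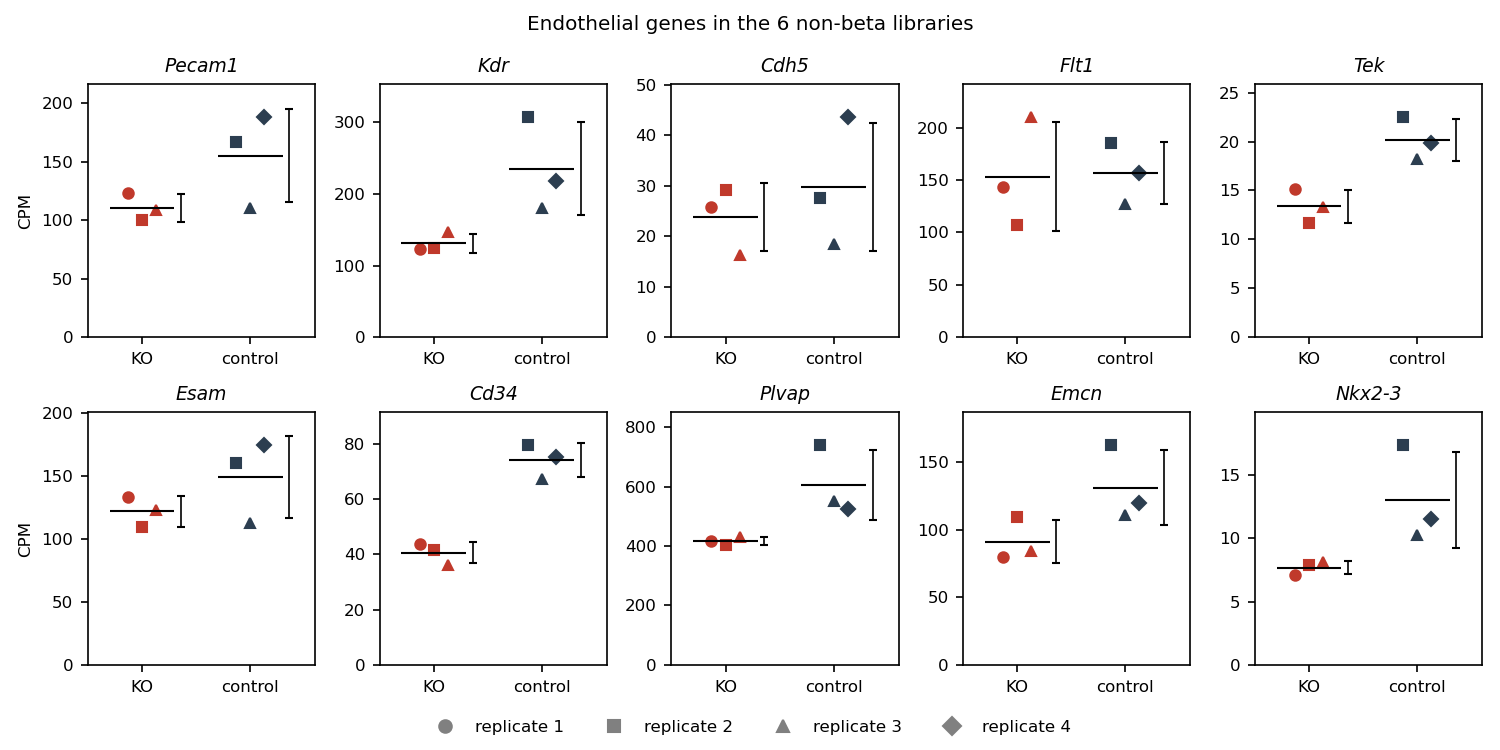
Level in CPM (vertical axis of each panel, starting at 0) of the 10 endothelial genes in the 6 non-beta libraries, knockout-labelled (KO, red) and control (blue). Marker shapes give the replicate number, the horizontal line is the group mean and the bar beside it is ± 1 SD (n = 3 each). All KO points lie below all control points for Kdr, Tek, Cd34, Plvap, Emcn and Nkx2-3, and the groups overlap for Pecam1, Cdh5, Flt1 and Esam.

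Summed over the 10 genes, the level was 1111, 1043 and 1176 CPM in the knockout-labelled non-beta libraries, against 1868, 1306 and 1530.0 CPM in the control non-beta libraries. The groups did not overlap, and the ratio of the means was 0.708. The ratio was 0.690 with library totals alone, 0.709 with DESeq2-type size factors and 0.714 with the islet hormone genes left out. It ran from 0.651 without control non-beta replicate 3 to 0.779 without control non-beta replicate 2, and it was 0.685 without knockout-labelled non-beta replicate 3. Plvap alone made up 37.5% of the sum under the knockout label and 38.6% in controls, so the sum leans on this gene. Control non-beta replicate 2 was the highest of the 6 libraries for 6 of the genes, control replicate 4 for 3 (Pecam1, Cdh5 and Esam) and knockout-labelled replicate 3 for Flt1. Each lowest value was in a knockout-labelled library.

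Wider lists of endothelial genes, 91 genes in 9 groups, were read in the same comparison. They were chosen by function, with earlier results of these data known. Of the 91 genes 87 were tested and 75 had a log2 fold change below 0, with a median of −0.38. None passed edgeR's test or DESeq2's, and 23 stood at an unadjusted p below 0.05. In 19 every knockout-labelled library was below every control, and in 0 every one was above, against 5.76% and 3.90% of all tested genes. The list medians ran from −0.62 for angiopoietins and TIE partners to 0.06 for the VEGF ligands.

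The ligands of the VEGF receptors were near level between the labels. Vegfa, which endocrine cells also make, had 347 ± 61.0 CPM in knockout-labelled and 332 ± 69.2 CPM in control non-beta cells (log2 fold change 0.08, SE 0.19, edgeR adjusted p = 0.999). Vegfb (0.10) and the placental growth factor gene Pgf (−0.12) also had log2 fold changes close to 0. The VEGF co-receptor gene Nrp1 had 74.8 ± 8.72 CPM under the knockout label and 109 ± 21.4 CPM in controls, with no overlap (−0.52, SE 0.16, edgeR adjusted p = 0.999). Nrp2 (−0.20) and Flt4 (−0.46), the receptor of VEGF-C, overlapped between the groups.

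Around Tek, the ligand gene Angpt2, which endothelial cells themselves secrete to loosen vessels, had 55.5 ± 12.9 CPM in knockout-labelled and 91.2 ± 10.4 CPM in control non-beta cells. Its groups did not overlap (log2 fold change −0.70, SE 0.17, edgeR adjusted p = 0.999). The orphan receptor gene Tie1, a partner of TEK, had 42.5 ± 9.61 CPM under the knockout label and 62.7 ± 20.9 CPM in controls (−0.54, SE 0.27). Angpt1, the stabilising ligand, was read at under 1 CPM in both groups and overlaps another gene in 14.2% of its exon bases, so its log2 fold change of −1.10 (SE 0.48) has little depth behind it.

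Notch, BMP and transcription factor genes were also mostly below 0 without passing the test. All 8 Notch genes tested were below 0, among them the tip-cell ligand Dll4 (log2 fold change −0.41, with 5.56% of its exon bases shared), Jag1 (−0.35) and Notch4 (−0.52). Of 8 BMP genes 7 were below 0, including the ALK1 receptor gene Acvrl1 (−0.64), its co-receptor gene Eng (−0.41) and the target Id3 (−0.18, groups not overlapping). All 13 tested transcription factor genes were below 0. The ETS repressor gene Elk3 had 31.4 ± 2.73 CPM in knockout-labelled and 43.8 ± 1.39 CPM in control non-beta cells (−0.46, SE 0.12, edgeR adjusted p = 0.999), and Sox7 was at −0.65, neither with overlap. Ets1 was at −0.37 and overlapped.

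Among 15 tested junction and adhesion genes 12 were below 0. The lectin-like receptor gene Cd93 was at −0.59 and did not overlap, while its partner Mmrn2 (−0.55), the proteoglycan gene Esm1 (−0.38) and Egfl7 (−0.27) did. Of 18 signalling and coagulation genes 15 were below 0. The adhesion receptor gene Adgrl4 had 52.4 ± 9.14 CPM in knockout-labelled and 82.2 ± 10.5 CPM in control non-beta cells (log2 fold change −0.63, SE 0.16, edgeR adjusted p = 0.999). The proton-sensing receptor gene Gpr4 (−0.59) and the endothelin receptor gene Ednrb (−0.53) also had groups apart, and S1pr1 (−0.38) did not. In the transport and caveolae list 12 of 14 were below 0. In 6 every knockout-labelled library was below every control, against 5.76% of all tested genes. The endocytic ATPase gene Ehd4 had 48.3 ± 3.31 CPM under the knockout label and 69.6 ± 2.47 CPM in controls (−0.51, SE 0.11, edgeR adjusted p = 0.880), and the caveolin gene Cav1 had 15.3 ± 2.70 CPM under the knockout label and 24.5 ± 1.24 CPM in controls (−0.67). Gpihbp1, which anchors lipoprotein lipase on capillaries, was at 0.05, and the fatty acid carrier gene Fabp4 at −0.11.

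**Figure D2:**
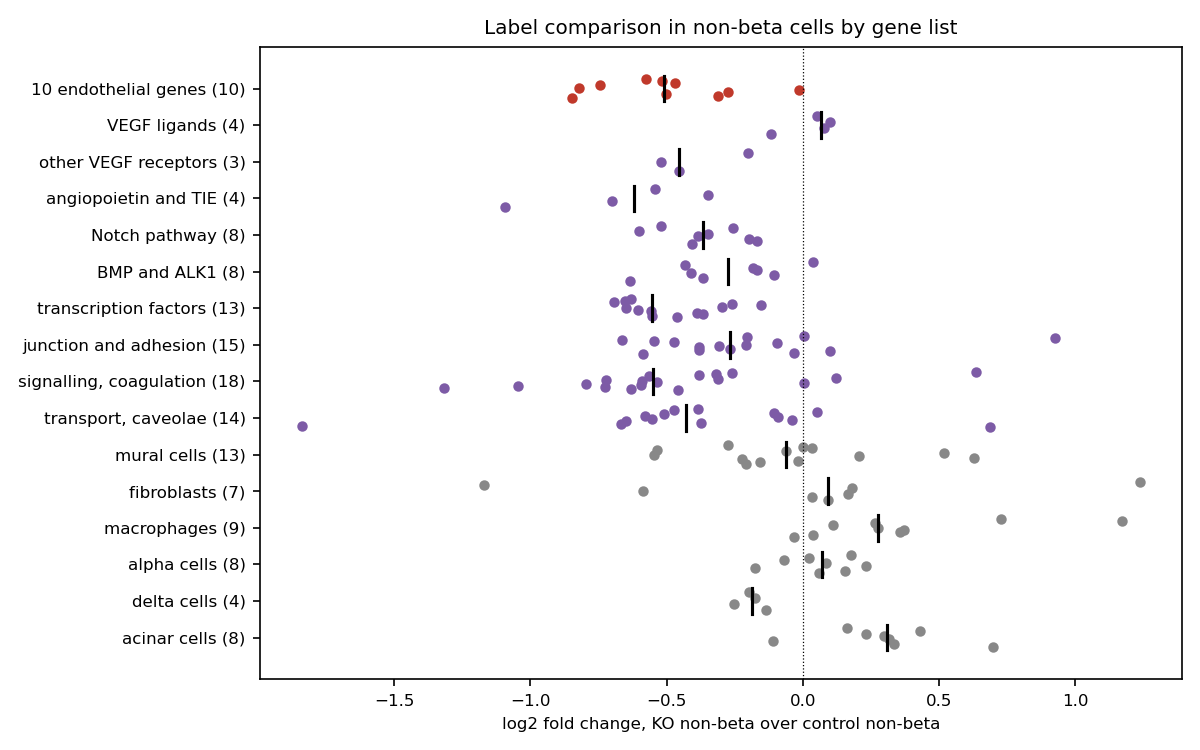
Fitted log2 fold change, knockout-labelled (KO) over control non-beta cells (horizontal axis), of each tested gene in the 10 endothelial genes (red), 9 other endothelial lists (purple) and 6 lists of other cell types (grey), with the number of tested genes in brackets. The black bar is the list's median, which is −0.51 for the 10 genes and 0.28 for macrophages, and no plotted gene passed edgeR's test.

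Other cell types of the fraction were read beside the endothelial genes as a measure of its makeup. The summed level of 13 mural cell genes (pericytes and smooth muscle, which wrap the same vessels) was 109, 111 and 140.5 CPM in knockout-labelled non-beta libraries, against 137, 99.2 and 148 CPM in controls, with overlap. Their median log2 fold change was −0.06, and 0 of 13 had groups apart. The 10 macrophage genes summed to 554, 505 and 488 CPM under the knockout label, against 415, 402 and 431 CPM in controls, so this list lay the other way with no overlap. In 3 of its 9 tested genes every knockout-labelled library was above every control, against 3.90% of all tested genes. The lysozyme gene Lyz2 had 112 ± 4.45 CPM under the knockout label and 68.4 ± 6.42 CPM in controls (log2 fold change 0.73, SE 0.12, edgeR adjusted p = 0.507, DESeq2 adjusted p = 0.00112). The complement gene C1qb was at 0.35 (SE 0.10, edgeR adjusted p = 0.999), also with groups apart.

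The 8 alpha-cell genes had a median log2 fold change of 0.07, with 2 below 0 and 0 with groups apart. The 4 delta-cell genes had a median of −0.19, with all 4 below 0. In 1 of these 4 every knockout-labelled library was below every control, against 5.76% of all tested genes. The fibroblast list had a median of 0.09, the duct list of 0.18 and the Schwann cell list of 0.16, none of them with a gene whose groups stood apart. The 8 beta-cell genes had a median log2 fold change of 0.46, with 7 of 8 above 0 and none called. In 1 of the 8 every knockout-labelled library was above every control, against 3.9% of all tested genes. They summed to 6903, 6586 and 31740 CPM under the knockout label, against 7069, 11770 and 7257 CPM in controls, so knockout-labelled replicate 3 stood far above the others. Acinar genes also varied widely, with sums of 8102, 5823 and 1583 CPM under the knockout label, against 2909, 3084 and 7830.0 CPM in controls. Platelet and red cell genes, which matter because platelets also carry Pecam1 and Esam, summed to 3.30, 6.60 and 4.17 CPM under the knockout label, against 2.25, 8.26 and 3.53 CPM in controls. Of the platelet genes, Pf4 had 17 to 103 reads in the 6 libraries, Itga2b 38 to 78 and Ppbp 1 to 7. Gp9 had no count in any of the 6. The 8 lymphocyte genes summed to 0.688 to 1.23 CPM in the 6 libraries. Among them Trac had 6 to 21 reads and Cd79b 7 to 15, while Cd3e and Nkg7 had 0 counts throughout. Of the lymphatic endothelial genes Lyve1 had 10 to 52 reads and Pdpn 14 to 66 in the 6 non-beta libraries. Ccl21a and Mmrn1 had no count in any non-beta library. Ccl21a occurs more than once in the annotation and only its first entry was read. Prox1, which islet endocrine cells also express, was the main part of that list's sum of 33.3 to 36.2 CPM under the knockout label and 41.5 to 46.5 CPM in controls. The part of these other cell types in the endothelial difference was not tested.

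**Figure D3:**
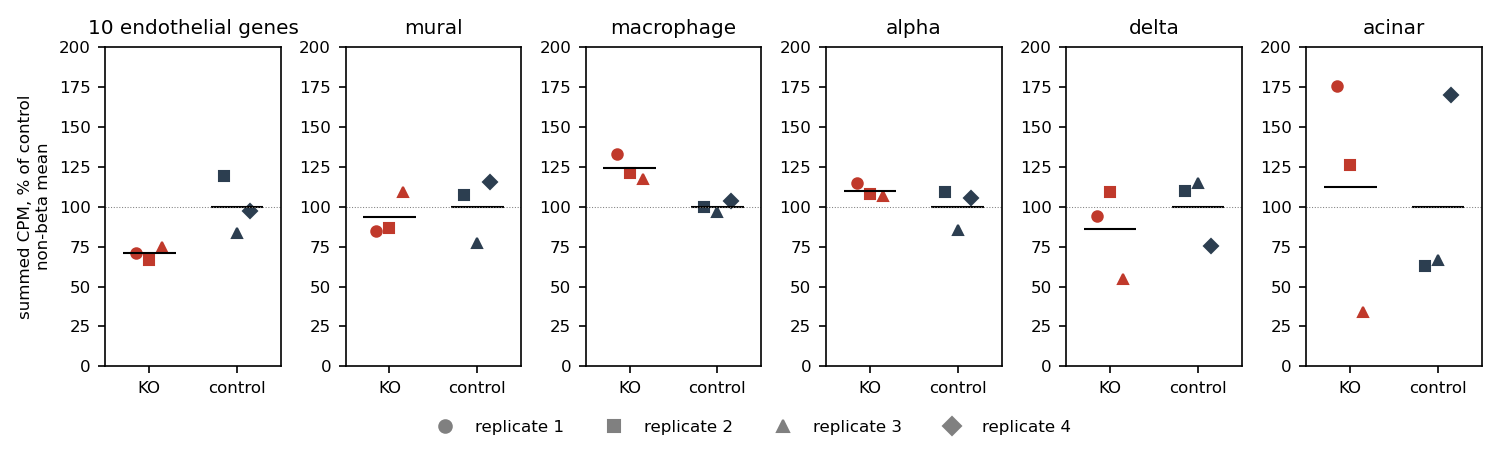
Summed CPM of 6 marker lists in each non-beta library as a percent of the control non-beta mean (vertical axis, 0 to 200), knockout-labelled (KO, red) left of control (blue), with the line at the group mean and marker shapes for the replicate number. The 10 endothelial genes lie lower in all 3 KO libraries than in any control, the macrophage genes lie higher, and the mural, alpha, delta and acinar sums overlap.

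In the beta-cell libraries the endothelial genes were read at trace levels, with Esam as the exception. Only 3 of the 10 passed the filter on low counts, Pecam1, Esam and Plvap. Esam had 7.60, 7.16 and 9.75 CPM in knockout-labelled beta libraries, against 9.99, 9.33, 9.84 and 7.42 CPM in control beta libraries. All 7 libraries were close together and the groups overlapped (log2 fold change −0.12, SE 0.15, edgeR adjusted p = 0.593). The authors' deposited table lists −0.12 with a false discovery rate of 0.649 for Esam.

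Pecam1 was the only 1 of the 10 called between the beta groups. It had 0.359, 0.888 and 2.84 CPM in knockout-labelled beta libraries, against 0.0983, 0.131, 0.690 and 0.274 CPM in control beta libraries, from 11, 33 and 107 reads under the knockout label and 3, 4, 19 and 9 reads in controls. Knockout-labelled replicate 1 lay below control replicate 3, so the groups overlapped. The log2 fold change was 2.25 (SE 0.70, edgeR adjusted p = 0.0436) in a comparison where 20.1% of 17525 genes were called and 10.1% were called higher. The call was lost without knockout-labelled beta replicate 3, where the log2 fold change was 1.16 with adjusted p = 0.236. It was also lost without knockout-labelled replicate 2 (log2 fold change 2.47, adjusted p = 0.0604) and without control replicates 1, 2 or 4 (log2 fold changes 1.96, 2.00 and 2.21, edgeR adjusted p = 0.0966, 0.115 and 0.0815). The call was kept without knockout-labelled replicate 1 or control replicate 3 (edgeR adjusted p = 0.0246 and 0.0243). DESeq2 (adjusted p = 0.01), a fit of all 13 libraries (edgeR adjusted p = 0.044) and a replicate block (edgeR adjusted p = 0.00334) also kept it. Plvap had 0.196, 0.565 and 5.72 CPM under the knockout label, against 0.426, 0.459, 1.85 and 0.487 CPM in controls (1.47, SE 0.88, edgeR adjusted p = 0.261), and its log2 fold change was −0.97 without knockout-labelled replicate 3.

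The other 7 genes were also highest in knockout-labelled beta replicate 3. Kdr had 0.0653, 0 and 5.14 CPM in knockout-labelled beta libraries, against 0.131, 0.197, 0.763 and 0.182 CPM in control beta libraries. Flt1 had 0.0653, 0.108 and 4.21 CPM under the knockout label, against 0.131, 0.131, 0.726 and 0.122 CPM in controls. In both genes knockout-labelled replicate 3 was far above every other library and control replicate 3 came next. Cdh5 had 38 reads and Nkx2-3 had 12 reads in knockout-labelled beta replicate 3. In the other 6 libraries Cdh5 had 0 to 10 reads and Nkx2-3 had 0 or 1. Tek, Cd34 and Emcn had 28, 30 and 58 reads in knockout-labelled beta replicate 3 and 0 to 19 reads elsewhere.

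Without Esam, the 9 genes summed to 0.750, 1.80 and 22.3 CPM in knockout-labelled beta libraries, against 0.983, 1.38, 5.78 and 1.82 CPM in control beta libraries. Set against the non-beta mean of the same label, each of the 9 genes stood at 1.37% to 5.55% in knockout-labelled beta replicate 3 and at 0% to 1.51% in the other 6 libraries. Esam stood at 8.01% there and at 4.98% to 6.70% in the other 6, a far smaller step. In the same library Gcg stood at 1.92% of its non-beta mean, the delta-cell genes at 2.05% and the acinar genes at 0.830%, against at most 0.413% for Gcg, 0.711% for delta and 0.223% for acinar genes in the other 6. The mural genes stood at 6.3% in this library and at 1.92% to 3.71% in the other 6. The summed macrophage genes lay the other way, at 16.9% in this library and 19.1% to 33.9% in the other 6. The 9 tested macrophage genes had median log2 steps, non-beta over beta, of 6.59 under the knockout label and 8.32 in controls. Their smallest steps were 0.518 and 0.095, so the macrophage sum leans on genes read at like levels in both fractions. The part of RNA from other cells in these beta-cell levels was not tested.

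**Figure D4:**
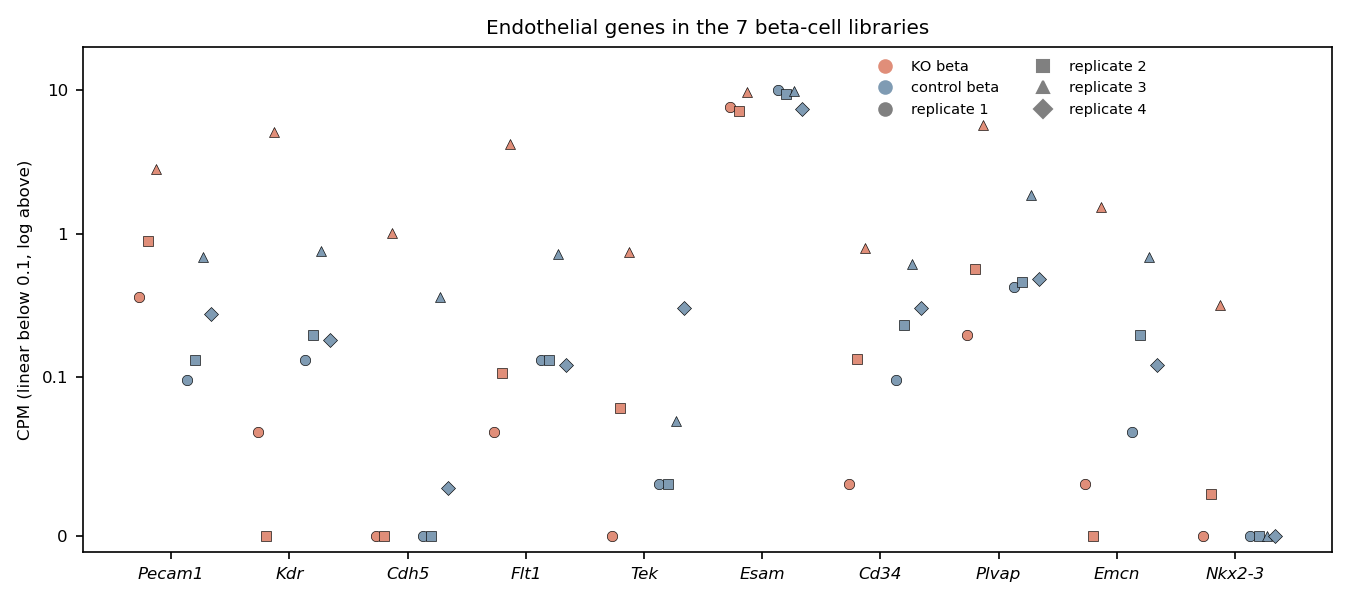
Level in CPM (vertical axis, linear below 0.1 and logarithmic above) of the 10 endothelial genes in the 7 beta-cell libraries, knockout-labelled (KO, light red) left of control (light blue), with marker shapes for the replicate number. KO replicate 3 (red triangle) is the highest library for 9 of the genes, while Esam lies between 7.16 and 9.99 CPM in every library.

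Between the sorted fractions all 10 genes were higher in non-beta cells under either label. In the beta libraries alone 7 of the 10 did not pass the filter on low counts, so these entered the comparison through the non-beta libraries where they are high. The counts, medians and log2 fold changes of the 10 are therefore a description of levels. In knockout-labelled cells 10 of 10 passed edgeR's test upward, where 42.6% of 18775 genes were called and 23.5% were called higher, with a median log2 fold change of 6.26, non-beta over beta. In control cells 10 of 10 passed upward, where 53.5% of 19014 genes were called and 28.6% were called higher, with a median of 9.03, or 9.02 with Nkx2-3 at its lower bound. No beta library reached a non-beta library for any of the 10.

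Cd34 was higher by 6.92 on the log2 scale in knockout-labelled non-beta cells than in knockout-labelled beta cells (SE 0.57) and by 7.92 in controls (0.28). Plvap was higher by 7.57 (0.99) under the knockout label and by 9.61 (0.41) in controls, and Kdr by 6.21 (1.13) under the knockout label and by 9.59 (0.38) in controls. The standard errors were wider under the knockout label for all of these, where replicate 3 of the beta cells stood apart. Without that library the median under the knockout label was 9.42, and without both replicate 3 libraries it was 9.44. Esam had the smallest step, 3.91 (0.16) under the knockout label and 4.05 (0.17) in controls. The authors' deposited tables, which run beta over non-beta, list Esam alone of the 10, at −4.11 in controls. Nkx2-3 had no count in any of the 4 control beta libraries. Against a floor of 3 counts over that group (0.0247 CPM) it was at least 528-fold higher in control non-beta cells.

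**Figure D5:**
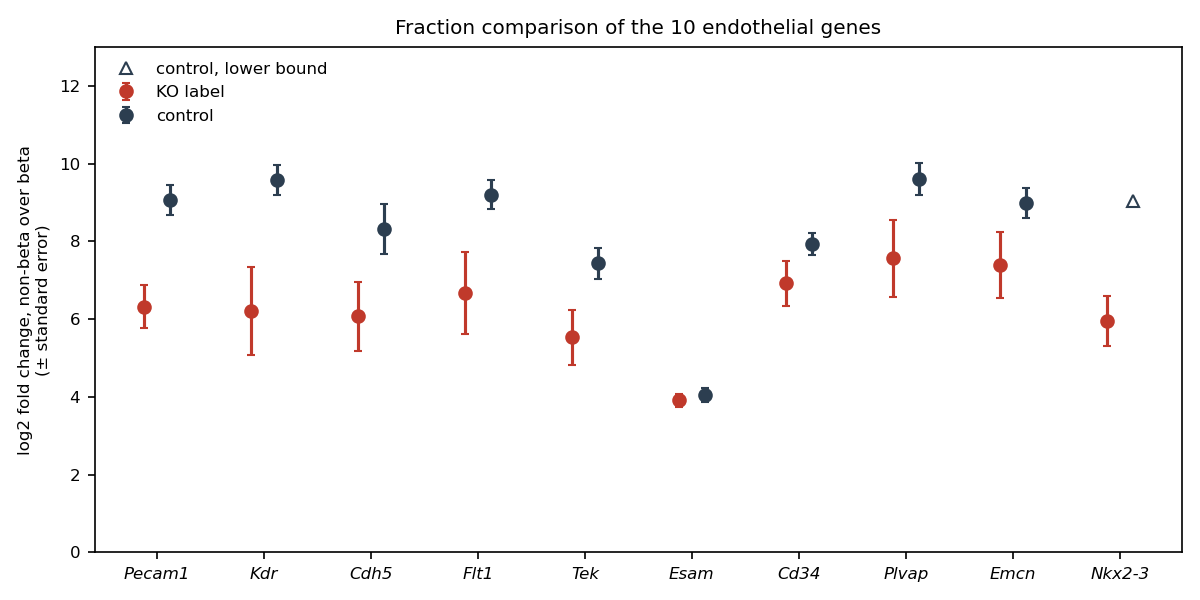
Log2 fold change, non-beta over beta cells (vertical axis), of each endothelial gene under the knockout label (KO, red) and in controls (blue), with bars of ± 1 standard error. The open triangle is the lower bound of Nkx2-3 in controls, which had no count in control beta cells. The KO points lie below the control points, least so for Esam at 3.91 and 4.05.

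Most genes of the wider endothelial lists were also higher in non-beta cells. Under the knockout label 77 of 84 tested genes were called higher and 2 lower, and in controls 79 of 86 were called higher and 3 lower, where 23.5% and 28.6% of all tested genes were called higher. The same filter applies to these lists, so the counts are a description. Vegfb and the Notch ligand gene Jag2 were lower in non-beta than in beta cells under both labels, and the junction gene Tjp1 in controls, all 3 named after their values were seen. Vegfb had 19.1 ± 1.75 CPM in knockout-labelled non-beta cells and 56.6 ± 2.16 CPM in knockout-labelled beta cells (log2 fold change −1.55, SE 0.12, edgeR adjusted p = 3.88e-05).

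Whether the label difference itself differed between the fractions was tested as an interaction over the 13 libraries. None of the 10 genes was called by edgeR, in a test that called 0.928% of 19942 genes. At an unadjusted edgeR p below 0.05 stood 3 of the 10 (Pecam1, Kdr and Nkx2-3) and 2454 of all genes. DESeq2 called 1 of the 10 (Nkx2-3, adjusted p = 0.038) and 2.79% of all genes. Of the 10, only Pecam1, Esam and Plvap passed the filter on low counts in the beta libraries alone. The others entered this test through the non-beta libraries where they are high, so their values here are a description. The median log2 difference was −2.14, with Pecam1 at −2.77 (SE 0.75, edgeR adjusted p = 0.124) and Esam at −0.16 (0.23, edgeR adjusted p = 0.852). Without knockout-labelled beta replicate 3 the median was 0.74, and 7 of the 10 genes had the opposite sign. Pecam1, Nkx2-3 and Esam stayed below 0 without it, at −1.69 (edgeR adjusted p = 0.318), −3.05 (0.53) and −0.05 (0.982). The direction of the median and of those 7 genes thus rests on that library. Nkx2-3 had 13 reads in all beta libraries, 12 of them in that library and 1 in knockout-labelled replicate 2. Its −3.05 therefore rests on 1 read, and its DESeq2 call leans on that library.

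Genes whose profile over the 13 libraries was nearest to the mean of the 10 were found by the root mean square difference of centred log2 CPM, among 12330 genes outside the set. The nearest were Fstl1 (0.33), Mmp14 (0.34), Tm4sf1 (0.34), Mmrn2 (0.35), Inpp5d (0.35), Gm49393 (0.35), Itga5 (0.36), Sox17 (0.36), Sgce (0.37) and Hhex (0.37). Within the 10, Cd34 was closest to their mean at 0.42 and Esam farthest at 2.02. Mmrn2 and Sox17 were also on the endothelial lists, and Hhex was on the delta-cell list. Measured over all 13 libraries, this likeness is set mainly by the step between fractions. In the label comparison of non-beta cells the log2 fold changes of the 10 nearest genes were smaller than the median of the 10 endothelial genes for all but Mmrn2, from −0.48 for Itga5 (SE 0.13, edgeR adjusted p = 0.999) to −0.03 for Tm4sf1 (0.16, edgeR adjusted p = 0.999).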

How the data were processed

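Counts per gene were deposited as raw whole numbers for 13 libraries with no normalisation, per the file headers. Per the labels' protocols, libraries were made from 5 to 10 ng RNA with SMART-seq ultra-low input and Nextera chemistry and sequenced as 100 bp paired reads (NovaSeq). FastQC, STAR, edgeR and GRCm38 p6 are named, without further versions, per the submitters' processing notes. The counting program and its strand setting are not given in the sources used here, which could shift reads between overlapping genes. The authors' deposited comparison tables give log2 fold changes and p-values with false discovery rates, per the file headers.

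Counts were tested with edgeR 4.0.16 in R 4.3.3 (filterByExpr with a minimum count of 10, TMM, quasi-likelihood F test, Benjamini-Hochberg adjustment over all genes tested, threshold 0.05), using only the libraries of a comparison, and DESeq2 1.42.0 was an alternative. The filter left 17525 to 19942 genes. The interaction used all 13 libraries. Standard errors were derived from the F statistic. Levels are CPM with TMM sizes of all 13 libraries. The scripts were checked on simulated data. Alternatives were other size factors, filters, a shared fit, hormone genes removed, a replicate block and leaving out each library.

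The genes, the lists and the rule for named genes (all 10, and in each endothelial list the genes of smallest p and of highest level) were chosen with earlier results of these data known. The labels give replicate numbers across groups. Between the beta-cell groups the deviations of same-numbered libraries had correlations of 0.111, 0.12 and 0.125, each over 0.1, the criterion used for pairing. Differently numbered pairs there ran from −0.195 to 0.118, so the highest of them were alike and the number is no clear pairing. A block on the number changed no call of the 10 genes there, though values moved. With it the log2 fold change was 2.20 for Pecam1 (edgeR adjusted p = 0.00334) and 0.77 for Plvap (edgeR adjusted p = 0.236). Control replicate 4 carries a sample code from another number range in both fractions.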

Additional observations from a re-analysis of the deposited data

Results flagged for a closer look

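In the control beta group of 4 libraries, single libraries stood far above the other 3 for 5 of the 10 genes by Dixon's criterion, out of 12 groups of values examined. Control beta replicate 3 was the high library for Kdr (0.763 CPM), Cdh5 (0.363 CPM), Flt1 (0.726 CPM) and Plvap (1.85 CPM). Control beta replicate 4 was the high library for Tek (0.304 CPM). Chance alone marks about 1 in 20 groups, and the genes are not independent of each other here. In the same replicate 3 library the delta-cell genes stood at 0.711% of their non-beta mean, against 0.185% to 0.388% in the other 3 control beta libraries. The mural genes stood at 3.71% there, against 1.92% to 2.63% in the other 3. Gcg stood at 0.410% there, close to the 0.413% of replicate 4. The macrophage sum, which leans on genes read at like levels in both fractions, was lowest there, at 27.2% against 28.6% to 33.9%. The part of RNA from other cells in these values was not tested.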

How the results depend on the processing

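In non-beta cells 8 of the 10 log2 fold changes stayed below 0 under all alternatives run, Flt1 and Cdh5 excepted. The numbers of genes called depended on the settings, and the cause was not tested. In non-beta cells the label comparison called 29 genes with DESeq2 (1 of the 10 genes, lower), 1 without a filter, 3 in a fit of all 13 libraries and 12 with a replicate block, against 0 in the main test. In beta cells it called 1673 in the fit of all libraries and 1991 to 4117 with 1 library left out, against 3525. Of the 10 genes, 4 were called higher there without a filter, where 12.2% of 30976 genes were called, 1926 of them higher. With a stricter filter, which left Esam as the only one tested, 0 were called, and 0 to 1 with 1 library left out. The interaction called 557 genes with DESeq2 (1 of the 10, lower), 50 with a replicate block and 62 to 289 with 1 library left out, against 185. Without a filter it called 0.683% of 34422 genes and 1 of the 10 (Pecam1, edgeR adjusted p = 0.0329). With the islet hormone genes removed, the summed level of the 10 genes was 1511 CPM in knockout-labelled non-beta, 2116 CPM in control non-beta and 15.6 CPM in control beta cells.

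Signs turned as follows. With 1 library left out, the log2 fold changes in non-beta cells ran from −0.31 to 0.18 for Flt1, −0.57 to 0.069 for Cdh5, −0.22 to 0.060 for Pgf, −0.42 to 0.15 for Fabp4, −0.82 to 0.13 for Flt4, −0.97 to 0.21 for Notch4, −0.023 to 0.28 for Vegfb, −0.080 to 0.21 for Vegfa and −0.044 to 0.14 for Gpihbp1. With the replicate block Notch4 was 0.051 and Gpihbp1 −0.047. In beta cells Plvap ran from −0.97 to 2.26, lowest without knockout-labelled replicate 3. The interaction ran from −4.21 to 2.31 for Kdr, −4.97 to 4.26 for Cdh5, −3.57 to 1.44 for Flt1, −3.17 to 0.65 for Tek, −1.54 to 0.82 for Cd34, −2.80 to 0.39 for Plvap and −2.61 to 3.23 for Emcn, each highest without knockout-labelled beta replicate 3. Without both replicate 3 libraries, an alternative chosen after seeing the data, it was 2.24 for Kdr, 4.49 for Cdh5, 1.17 for Flt1, 0.67 for Tek, 0.91 for Cd34, 0.37 for Plvap and 3.30 for Emcn. Knockout-labelled beta replicates 1 and 2 held 2 and 0 reads of Kdr, 0 and 0 of Cdh5 and 1 and 0 of Emcn. The values of these genes without replicate 3 thus have almost no reads behind them.

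Outside the beta-cell label comparison the same replicate number did not meet the criterion for pairing, a correlation of deviations over 0.1 in every pair (correlations −0.067 and 0.301 in non-beta cells, 0.085 to 0.098 between knockout-labelled fractions and 0.066 to 0.208 between control fractions), so the replicate block there is only an alternative. It left 7877 genes called between fractions under the knockout label and 9494 in controls. Depth limits the beta-cell values, where 9 of the 10 genes had 0 to 51 reads in a library other than knockout-labelled replicate 3.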
